A study of Mus musculus with 9 samples.

Results

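Livers of mice whose SND1 carries a mutated Tudor domain (KI) were compared with livers of mice without SND1 (KO), over every gene with a mean deposited value of at least 10 across the series. The comparison took the 3 KI and the 3 KO libraries of a series of 9, and 15238 of the 19944 genes in the table met the minimum. The other 3 libraries are wild type (WT). They enter the estimate of the spread and are given beside the named genes. All mice were male, of the FVB strain by the sample titles, and 60 days old, on normal chow with a 12 h light cycle. The genotype label of the KO group is SND1 KO and that of the KI group SND1 KI, which the series describes as a Tudor domain mutant. The labels give neither the residue that was changed nor the kind of knockout allele, and they do not say whether the animals were littermates or shared cages, so p-values measure only the spread between these samples. The cell type label is hepatocyte, but the tissue label is liver, and RNA was taken from tissue. Libraries are named by group and replicate number, such as KI_2.

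SND1 (staphylococcal nuclease and Tudor domain containing 1) is a widely expressed protein with repeated nuclease-like domains and a Tudor domain. The nuclease-like domains bind RNA and contact transcription factors and splicing proteins. The Tudor domain is an aromatic pocket that binds methylated arginines on partners such as the spliceosomal Sm proteins, and PRMT enzymes place those methyl groups. A knockout removes the whole protein, whereas a Tudor mutant can leave the rest of it in place, so the comparison asks how liver transcripts differ between loss of the protein and a change in its methylarginine reader.

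Recovered sequencing depth lay between 59678412 and 66384374 reads per library. Pancreatic exocrine transcripts appeared in KI_1, KI_3 and WT_3, where 23 digestive enzyme genes and related markers held 0.568%, 6.54% and 1.35% of the deposited total. In KI_2 and the other 5 libraries they held at most 0.00526%, and Pnlip, the pancreatic lipase gene, was listed at 0 in KI_2 and in all 3 KO libraries. These 23 genes had a median difference of 9.58 between KI and KO on the log2 scale, with KI_2 at the level of the KO libraries. None was called by limma or edgeR, although 17 had an unadjusted p under 0.05 and DESeq2 called all 23. KI_1, KI_3 and WT_3 also lay together on the first principal component of all genes (44.2% of the variance), at -62.2, -87.2 and -63.4, with the KO libraries at 44 to 70.4. The part of the pancreatic transcripts in each result below was not tested beyond 2 alternatives, chosen after seeing the data: a fit without these 3 libraries, and a fit with the pancreatic level as a covariate.

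Snd1 itself checked the KO label, and its level does not tell the KI and WT libraries apart. Snd1 (ENSMUSG00000001424, chromosome 6, 28475139 to 28935162, plus strand, GRCm38, protein coding) had deposited values of 227, 414 and 359 in KO, 5373, 7941 and 5595 in KI and 6951, 8446 and 6512 in WT. The KI and KO libraries did not overlap, and KI lay above KO by 4.26 ± 0.23 on the log2 scale (SE, 3 libraries per group, limma adjusted p = 1.59e-05). KI against WT gave -0.23 (adjusted p = 0.745), and KI_2 lay inside the WT range. The KO libraries kept a residual level of Snd1 reads. Without KI_1, KI_3 and WT_3 the difference was 4.61 (adjusted p = 0.0504).

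Of the 15238 genes, 548 were called higher in KI than in KO (3.6%) and 739 lower (4.85%), together 8.45% of all genes tested. A gene was called at an adjusted p under 0.05 in limma, with no minimum fold. At least a 2-fold difference was found for 277 of the higher and 340 of the lower genes, and at least a 4-fold difference for 104 and 124. The median over all genes was 0.01, and 3788 genes had an unadjusted p under 0.05. In 26.4% of all genes the 3 KI libraries lay wholly above or wholly below the 3 KO libraries. In bulk liver, fewer cells of a type and less RNA per cell cannot be told apart.

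**Figure D1:**
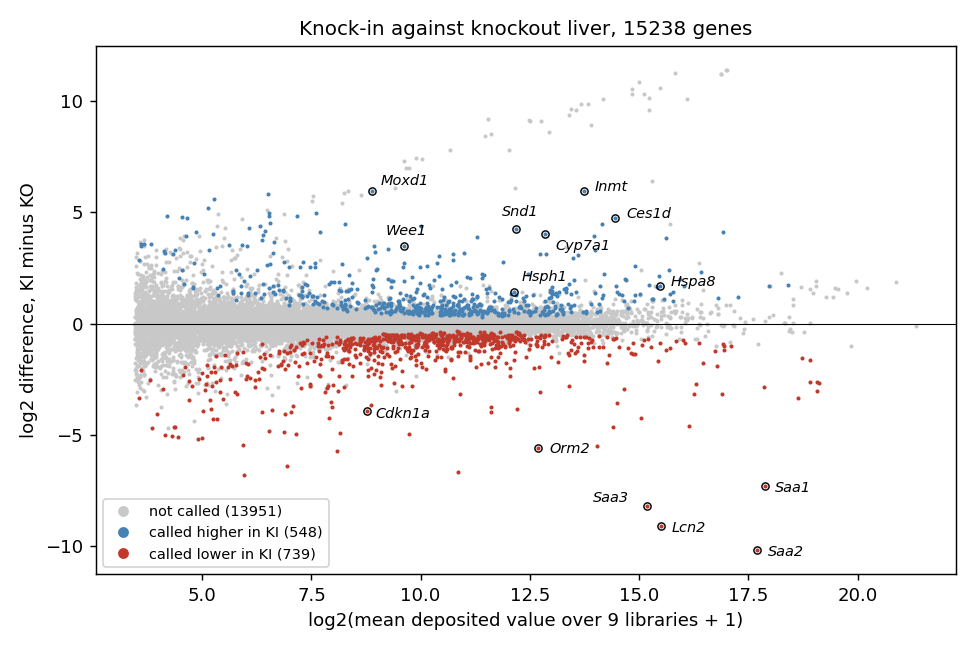
Log2 difference of KI minus KO (vertical axis) against log2 of the mean deposited value plus 1 (horizontal axis), 1 point per gene tested, with called genes coloured by direction. Saa2, Lcn2, Saa3 and Saa1 lie lowest among the called genes, and uncalled grey points rise to 11.4, the level of the pancreatic enzyme gene Amy2a5.

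The counts depended on single libraries. Without KI_1, 182 genes were called higher and 299 lower, and without KI_3, 207 and 328. Without KO_2 the counts were 160 and 240, without KO_3 293 and 523, and without WT_1 336 and 497. Leaving out KO_1, the KO library nearest to WT in the acute phase and drug metabolism lists below, raised them to 1235 and 1066. Without KI_1, KI_3 and WT_3, which leaves KI_2 as the only KI library and assumes that it varies like the others, 0 genes were called higher and 4 lower by limma (Saa2, Saa1, Slc3a1 and Fabp5), while 1659 had an unadjusted p under 0.05. All 1287 called genes kept the sign of their difference in that fit, which shares KI_2 and the KO libraries with the full one.

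Sequence at the start site is shown for 4 genes of the groups that differed, because a heat shock element or a STAT site lies in each window. The windows run from 250 bases before to 50 bases after the start, from RefSeq, build GRCm38.p6, with the matched letters in capitals. They were chosen after the values were seen. The heat shock element was searched as GAANNTTCNNGAA or TTCNNGAANNTTC, its 2 phases of 3 units, which are each other's reverse complement and may overlap. Heat shock factor, the activator of chaperone genes, is known to bind such units. The STAT site was searched as TTCCNGGAA, which reads alike on both strands and is a form that STAT3, the effector of interleukin-6, is known to bind. Hsph1 encodes the HSP110 chaperone (chr5:149636287-149636586, minus strand), with a match that begins at base 37 from the start. Hsph1 has 2 start windows, and the one printed was taken because it holds a match. Chordc1 encodes an HSP90 co-chaperone (chr9:18292017-18292316, plus strand), with overlapping matches that begin at base -4, base 2 and base 7. Hspe1 encodes the mitochondrial chaperonin HSP10 (chr1:55087898-55088197, plus strand), with matches at base -89 and base -84. The neighbouring Hspd1, which encodes HSP60, starts on the opposite strand of the same stretch and shares these matches. Fga encodes the fibrinogen alpha chain (chr3:83025903-83026202, plus strand), with a STAT match at base -234.
Hsph1: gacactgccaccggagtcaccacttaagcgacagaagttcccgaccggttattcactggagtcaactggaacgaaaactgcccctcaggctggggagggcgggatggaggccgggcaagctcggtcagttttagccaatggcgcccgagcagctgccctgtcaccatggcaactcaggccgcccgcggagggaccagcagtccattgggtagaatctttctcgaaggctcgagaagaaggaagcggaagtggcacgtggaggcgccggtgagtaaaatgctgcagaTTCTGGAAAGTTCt
Chordc1: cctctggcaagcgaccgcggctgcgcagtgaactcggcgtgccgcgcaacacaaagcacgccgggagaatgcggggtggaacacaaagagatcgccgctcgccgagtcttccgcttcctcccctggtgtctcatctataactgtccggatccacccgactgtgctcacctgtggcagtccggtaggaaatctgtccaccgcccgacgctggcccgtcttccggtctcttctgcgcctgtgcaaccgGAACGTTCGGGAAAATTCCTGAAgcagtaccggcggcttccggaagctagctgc
Hspe1: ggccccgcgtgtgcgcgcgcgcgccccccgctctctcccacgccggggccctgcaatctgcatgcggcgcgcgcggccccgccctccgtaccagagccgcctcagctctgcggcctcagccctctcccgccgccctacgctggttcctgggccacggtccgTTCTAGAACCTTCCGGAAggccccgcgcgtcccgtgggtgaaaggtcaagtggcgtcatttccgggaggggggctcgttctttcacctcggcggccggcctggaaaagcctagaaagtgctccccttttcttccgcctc
Fga: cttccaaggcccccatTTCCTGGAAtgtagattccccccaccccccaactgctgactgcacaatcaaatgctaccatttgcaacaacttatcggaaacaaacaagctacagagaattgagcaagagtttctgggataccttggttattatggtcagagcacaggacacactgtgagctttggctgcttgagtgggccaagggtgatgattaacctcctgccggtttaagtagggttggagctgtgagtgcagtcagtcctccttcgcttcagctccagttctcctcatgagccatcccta

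Of 10822 tested genes with a window, 62 held the heat shock element (0.573%) and 176 the STAT site (1.63%). Among 21 heat shock chaperone genes with a window, 4 held the heat shock element, namely Hsph1, Chordc1, Hspd1 and Hspe1. All 4 belong to the 12 with a window that were called higher in KI, and 0 of the 9 not called held it. Of 23 positive acute phase genes with a window, 2 held the STAT site, Fga and Steap4, and both were called lower in KI. A match describes these letters in this window, and other forms of either element were not searched.

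Positive acute phase proteins were lower in KI than in KO. These are plasma proteins whose synthesis by hepatocytes rises in inflammation, such as serum amyloid A, lipocalin 2, orosomucoid, haptoglobin and fibrinogen. Of 30 tested, 26 were called lower in KI and 0 higher, against 4.85% and 3.6% of all genes. The median difference was -2.76 against 0.01 over all genes. Saa2, an apolipoprotein of the acute phase (chromosome 7, 46751790 to 46754313, plus strand), had values of 353401, 737547 and 809849 in KO and 511, 358 and 739 in KI. The KI libraries lay near WT, at 246, 264 and 266, and far below every KO library. Among called genes with a mean of at least 50, its difference of -10.18 ± 0.32 (adjusted p = 2.14e-07) was the largest.

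Saa1 (chromosome 7, 46740497 to 46742980, minus strand) read 399691, 810480 and 929704 in KO, 4378, 2921 and 5970 in KI and 1841, 1867 and 1366 in WT, a difference of -7.30 ± 0.33 (adjusted p = 4.89e-06). Saa1 and Saa2 are closely similar in sequence, so reads may be split between them. Every KI library stood above every WT library for both, but KI against WT did not pass the test for Saa1 (1.34, adjusted p = 0.178) or Saa2 (0.98, adjusted p = 0.261). Against WT, KO gave 8.64 for Saa1 and 11.16 for Saa2.

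Lcn2 encodes lipocalin 2, which withholds iron from bacteria (chromosome 2, 32384633 to 32388252, minus strand). It read 38256, 201637 and 175035 in KO against 192, 199 and 211 in KI and 248, 352 and 135 in WT, a difference of -9.10 ± 0.55 (adjusted p = 3.40e-05). KO_1 was the lowest KO library and still stood above all KI and WT libraries. Orm2, an orosomucoid that binds drugs and lipids in plasma, read 9576, 22850 and 25353 in KO and 377, 328 and 404 in KI (-5.58 ± 0.31, adjusted p = 1.63e-05). Saa3, the serum amyloid A made by several tissues, read 6357, 114488 and 210442 in KO and 215, 161 and 174 in KI (-8.19 ± 0.98, adjusted p = 0.00162). KO_1 was again the lowest of the 3 KO libraries. A2m, the alpha-2-macroglobulin gene, had the same spread within KO, with 200, 7844 and 8476, against 32.2, 30.1 and 11.2 in KI (-6.67 ± 1.23, adjusted p = 0.011). The call of A2m was lost without KO_2 (adjusted p = 0.0565), while those of Saa1, Saa2, Saa3, Lcn2 and Orm2 held whichever of the 9 libraries was left out.

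The called members ran from -10.18 for Saa2 to -0.63 for Lgals3bp, and Fga, whose window is printed above, read 707756, 1861909 and 1381773 in KO and 172589, 243251 and 163932 in KI (-2.68 ± 0.41, adjusted p = 0.00519). The list's summed value was 8.9%, 22.2% and 23% of the deposited total in KO_1, KO_2 and KO_3, and 2.18%, 2.81% and 1.87% in the KI libraries. Its mean difference from WT was 2.70, 4.12 and 4.11 on the log2 scale in KO and 0.30, 0.26 and 0.15 in KI, so the groups were apart and KO_1 was the nearest KO library to KI. Hamp, named after its values were seen, encodes hepcidin, the hormone that limits iron uptake, and did not differ in this way. Hamp read 41512, 58331 and 56212 in KO and 61693, 46710 and 46778 in KI, with overlapping groups (difference -0.00 ± 0.21, adjusted p = 0.992). With KI_2 as the only KI library the median of the positive acute phase proteins was -2.74 and 2 members were called. With the pancreatic covariate 14 were called, and with single libraries left out 20 to 27.

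Markers of neutrophils and monocytes, which enter inflamed liver, had a lower median in KI, but KO_1 lay among the KI libraries. Their mean difference from WT was 0.72, 2.41 and 3.28 in KO_1, KO_2 and KO_3. It was -0.41, 0.05 and 1.17 in KI_1, KI_2 and KI_3. Of 17 markers, 10 were tested, 2 were called lower in KI and 0 higher, with a median of -1.45. Over all genes 4.85% were called lower. In this list 5 were called lower without KO_1 and 1 without KI_1, KI_3, KO_2, KO_3 or any 1 WT library. The summed share of the list was 0.000863%, 0.0026% and 0.00456% in KO and 0.000338%, 0.00045% and 0.000824% in KI. Prtn3, the neutrophil proteinase 3 gene, read 274, 482 and 452 in KO, 18.2, 5.48 and 14.6 in KI and 0.96, 8.67 and 6.01 in WT (-4.97 ± 0.64, adjusted p = 0.00233). S100a9, named after its values were seen, encodes a calcium-binding protein of neutrophils and was high in KO_2 and KO_3 only, with 52.7, 437 and 771 in KO and 9.66, 34.7 and 135 in KI (-2.82 ± 1.09, adjusted p = 0.142). Macrophage markers did not move as a list, with a median of -0.01, 6 positive and 8 negative differences and 1 call of 14 (2 without KO_1), near the 8.45% of all genes. The gene called was Mpeg1, which encodes a pore-forming protein, with 8768, 8213 and 10335 in KO and 4946, 4278 and 4565 in KI (-0.98 ± 0.17, adjusted p = 0.00963). The part of neutrophils and monocytes in the acute phase result was not tested.

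**Figure D2:**
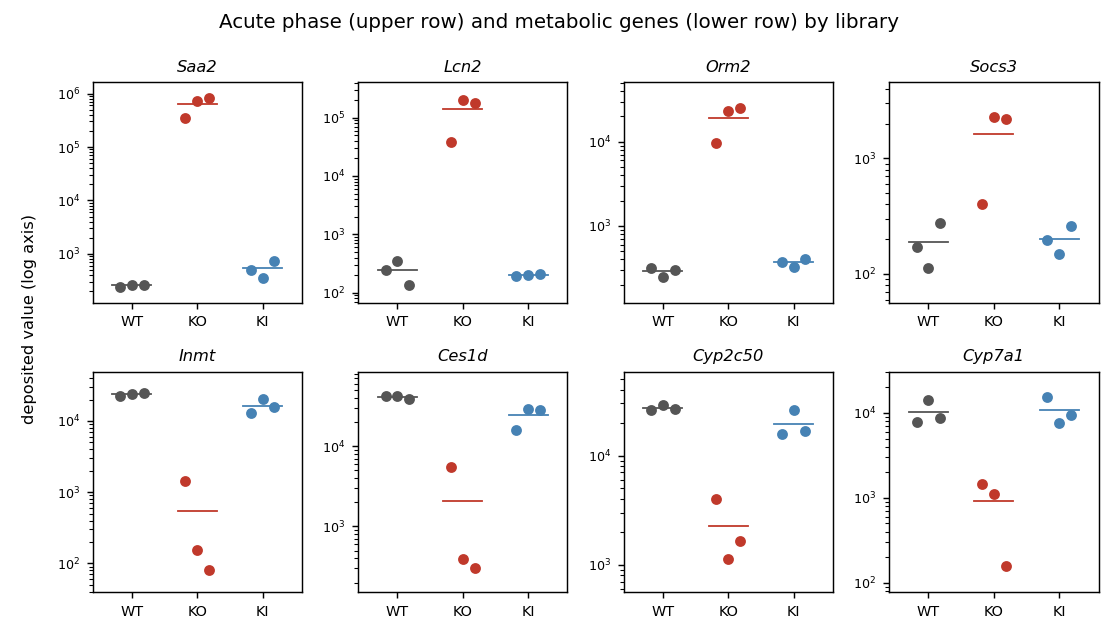
Deposited values by library (log axis) of Saa2, Lcn2, Orm2 and Socs3 in the upper row and Inmt, Ces1d, Cyp2c50 and Cyp7a1 in the lower row, for WT, KO and KI with 1 point per library. In every panel the 3 KI libraries lie on the WT side of the 3 KO libraries, as for Saa2 with 358 to 739 in KI against 353401 to 809849 in KO.

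Receptors and transducers of interleukin-6 and interleukin-1, the cytokines that drive acute phase synthesis, moved less and in both directions. Of 18 tested, 3 were called lower in KI and 1 higher, against 4.85% and 3.6% of all genes. The median was -0.27. Il1r1, the signalling receptor of interleukin-1, read 13163, 23054 and 18480 in KO and 6327, 4825 and 4926 in KI (-1.74 ± 0.33, adjusted p = 0.0126). Stat3, the transcription factor downstream of interleukin-6, read 8743, 14206 and 10649 in KO and 5040, 6895 and 5686 in KI (-0.91 ± 0.19, adjusted p = 0.0199). KI and KO libraries did not overlap for either gene. Socs3, the feedback inhibitor of this pathway, read 401, 2274 and 2192 in KO and 196, 148 and 258 in KI (-2.68 ± 0.60, adjusted p = 0.0246), and KO_1 was well below the other KO libraries.

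Lifr, the receptor of leukemia inhibitory factor, went the other way, with 22590, 9823 and 6478 in KO and 47995, 45086 and 37189 in KI (1.94 ± 0.37, adjusted p = 0.0122). Every KI library of Lifr was also above the WT values of 20097, 22398 and 27670, though KI against WT gave an adjusted p of 0.383. All 4 calls were lost without KO_2, and adjusted p then rose to 0.0605 for Il1r1, 0.105 for Socs3 and 0.0588 for Lifr. Without KI_1 it was 0.0841 for Stat3. Across the list, 8 members were called lower without KO_1, 2 without KI_2 or KO_3, 1 without KI_1, and 0 without KI_3 or KO_2.

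Subunits and inhibitors of NF-kB, the factor downstream of interleukin-1 and tumour necrosis factor, gave 2 calls among 19, both lower in KI. This share was near the 8.45% called over all genes, and the median was -0.05, so the list did not stand out. Nfkbiz, an inducible nuclear co-regulator, read 422, 773 and 683 in KO and 215, 201 and 275 in KI (-1.41 ± 0.25, adjusted p = 0.0103). Tnfrsf1a, a tumour necrosis factor receptor, read 2931, 4177 and 3838 in KO and 2409, 2314 and 2072 in KI (-0.67 ± 0.14, adjusted p = 0.0182). The KI libraries of both genes lay below the KO libraries and close to WT. Without KO_2 neither was called (adjusted p = 0.0526 and 0.0799), and 1 was without KI_1, KI_3 or KO_3.

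Complement and clotting genes differed by smaller amounts. Of 23 complement genes, 8 were called lower in KI and 1, the lectin gene Mbl2, higher (0.56), with a median of -0.21 over the list. C4bp, Cfi and Serping1, which restrain complement, differed by -0.86 ± 0.16, -0.75 ± 0.16 and -0.78 ± 0.16. Without KI_1, KI_3 or KO_2 none of the complement genes was called lower, and without WT_1 there were 5. Of 21 coagulation and fibrinolysis genes, 6 were called lower and 0 higher, with a median of -0.35. Among all genes tested, 4.85% were called lower and 3.6% higher. Cpb2, a carboxypeptidase that slows clot breakdown, read 34939, 60305 and 59804 in KO and 18920, 21786 and 17622 in KI (-1.37 ± 0.21, adjusted p = 0.00464), with KI close to WT. Its call held with each library left out, whereas 1 clotting gene in all was called without KI_1, KI_3 or KO_2. With the KI and KO libraries alone 0 complement genes and 2 clotting genes were called, and with the pancreatic covariate 0 of either list.

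Negative acute phase carriers, plasma proteins whose synthesis drops in inflammation, were called in both directions. Of 13 tested, 3 were called higher in KI and 1 lower, against 3.6% and 4.85% of all genes, and the median was 0.05. KI and KO libraries did not overlap for 8 of the 13, against 26.4% of all genes. Serpina6, which carries corticosteroids, read 7279, 3013 and 2168 in KO and 11009, 15141 and 11361 in KI (1.77 ± 0.35, adjusted p = 0.0153). Serpina7, which carries thyroid hormone, moved the opposite way, from 5046, 10946 and 22610 in KO to 1062, 928 and 427 in KI (-3.84 ± 0.49, adjusted p = 0.00214). Serpina7 kept its call with each library left out. Serpina6 lost it without KI_1 or KO_2 (adjusted p up to 0.0735), and the count of higher calls was 6 without KO_1, 2 without KI_3 or any WT library, 1 without KI_2 or KO_3, and 0 without KI_1 or KO_2. Alb, the albumin gene, named after its values were seen, differed by -0.09 ± 0.84, adjusted p = 0.961.

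Iron genes gave 1 call higher and 2 lower among 17, against 3.6% and 4.85% of all genes. Hamp2, a second hepcidin gene, read 101, 14.2 and 31.7 in KO, 321, 263 and 280 in KI and 612, 1013 and 1260 in WT (2.96 ± 0.56, adjusted p = 0.0122). KI lay between the other groups without overlap. Hamp and Hamp2 are close copies, so reads may be shared between them. The zinc and iron importers Slc39a14 and Slc11a2 differed by -1.04 ± 0.26 and -0.73 ± 0.16. Hamp2 lost its call without KI_1 (adjusted p = 0.0543), and without KI_1 none of the list was called. Mt2, a metallothionein that binds zinc and copper, is outside the list and read 16736, 67464 and 53443 in KO and 2356, 301 and 902 in KI (-5.51 ± 0.74, adjusted p = 0.00268).

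Many enzymes that clear drugs, hormones and lipids were higher in KI than in KO. They comprise cytochrome P450 oxidases, transferases that attach glutathione, sulfate, glucuronic acid or methyl groups, and carboxylesterases that split esters in the endoplasmic reticulum. Of 33 P450 genes tested, 7 were called higher and 1 lower, with a median of 1.04. Among 38 conjugation enzymes, 17 were higher and 2 lower, with a median of 1.05. Of 13 carboxylesterases and related esterases, 9 were higher and 0 lower, with a median of 1.43. Over all genes 3.6% were called higher. The counts of higher calls depended on the fit. For the P450, conjugation and carboxylesterase lists they were 6, 12 and 3 in edgeR, 9, 21 and 5 in DESeq2, 5, 11 and 3 with the KI and KO libraries alone, and 4, 2 and 0 with the pancreatic covariate.

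Cyp2c50, Cyp2c54 and Cyp2c37 encode oxidases of drugs and fatty acids. Cyp2c50 read 3964, 1133 and 1637 in KO, 15783, 26298 and 16751 in KI and 25927, 29272 and 26483 in WT. KI_1 and KI_3 lay between KO and WT and KI_2 inside the WT range, and KI exceeded KO by 3.29 ± 0.38 (adjusted p = 0.00129). Cyp2c54 and Cyp2c37 differed by 3.10 ± 0.36 and 2.84 ± 0.34, with every KI library below every WT library. Cyp2c genes form a cluster of close copies, so reads may be shared. Cyp2a5, the coumarin hydroxylase, read 5601, 801 and 309 in KO and 23422, 25577 and 25092 in KI (4.47 ± 0.79, adjusted p = 0.00932), with KI inside or near the WT values of 24523, 35938 and 22663. Its near copy Cyp2a4 and the pseudogene Cyp2a21-ps differed by 4.48 ± 0.95 and 4.99 ± 0.95.

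Cyp3a13 was the gene of the P450 list called lower, with 5364, 10808 and 9785 in KO and 3040, 2736 and 2338 in KI (-1.62 ± 0.24, adjusted p = 0.00412). The calls of Cyp2c50, Cyp2c54, Cyp2c37, Cyp2a5 and Cyp3a13 held with each library left out. Without KO_2, Cyp2a4 and Cyp2a21-ps were no longer called (adjusted p = 0.0668 and 0.0581), and Cyp2a4 was not without KI_1 or KI_3 either. The pseudogene Cyp3a61-ps1, outside the list, read 125, 1.01 and 2.71 in KO and 315, 329 and 207 in KI (4.83 ± 1.22, adjusted p = 0.0384), and its call held only without KO_1. Leaving out KO_1 raised the number of P450 genes called higher from 7 to 19.

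Inmt, a methyltransferase of indoles and thioethers (chromosome 6, 55170626 to 55175043, minus strand), had the largest difference among conjugation enzymes. It read 1420, 155 and 79.6 in KO, 13134, 20282 and 15776 in KI and 22759, 23814 and 24695 in WT. KO was far below both other groups, KI was below WT without overlap, and KI exceeded KO by 5.95 ± 0.80 (adjusted p = 0.00265). Gsta2, an alpha class glutathione transferase, read 171, 42.5 and 29 in KO and 1604, 1407 and 877 in KI (4.37 ± 0.57, adjusted p = 0.00241). Gstt2, of the theta class, differed less and with little spread, from 1600, 1719 and 1356 in KO to 2458, 2668 and 3027 in KI (0.80 ± 0.12, adjusted p = 0.00535). Sult2a8, a bile acid sulfotransferase, read 27105, 11421 and 8549 in KO and 58136, 59892 and 63123 in KI (2.13 ± 0.34, adjusted p = 0.0061). For all 3 genes KI and KO were apart and KI overlapped or neared WT.

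Those 4 calls held with each library left out. Gsta5, a further alpha class member outside the list, differed by 4.28 ± 0.83 and lost its call without KI_1 (adjusted p = 0.0573). Of the conjugation enzymes, 30 were called higher without KO_1, 11 without KI_3 or KO_3, and 9 without KI_1 or KO_2. Nnmt and Ugt2b37, the 2 called lower, were at -1.52 and -1.94.

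Ces1d, a carboxylesterase that also releases fatty acids from stored fat, read 5557, 388 and 306 in KO, 15893, 28695 and 28161 in KI and 42380, 41757 and 38481 in WT. No KI library reached WT, and KI exceeded KO by 4.75 ± 0.86 (adjusted p = 0.0106). Ces1e, Ces2c and Ces1g differed by 2.93 ± 0.55, 3.04 ± 0.59 and 3.14 ± 0.65. Ces2b, outside the list, read 42.6, 10.1 and 0 in KO and 416, 146 and 98.6 in KI (4.54 ± 1.11, adjusted p = 0.0348). These genes are close copies within the Ces1 and Ces2 clusters, so reads may be shared. Each of these 5 calls was lost without KO_2, where the adjusted p of Ces1d was 0.0528. The count of 9 became 0 without KO_2, 2 without KI_1, 3 without KI_3 or KO_3, and 4 without KI_2 or WT_1.

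KO_1 lay nearest to WT in these lists too. The mean difference from WT over conjugation enzymes was -0.57 in KO_1 against -1.62 and -1.98 in KO_2 and KO_3, and -0.09, -0.02 and -0.18 in KI. For P450 genes it was -0.89, -2.25 and -2.68 in KO and -0.81, -0.38 and -0.99 in KI, so that KO_1 fell among the KI libraries. With KI_2 as the only KI library the medians of 1.04 for P450 genes and 1.43 for carboxylesterases were 1.16 and 1.83, with no gene of the 3 lists called. None of 7 xenobiotic receptors and partners, which switch on P450 genes, was called by limma, edgeR or DESeq2 (median 0.17, 2 with an unadjusted p under 0.05).

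Heat shock chaperones were higher in KI than in KO. The list holds cytosolic members and the mitochondrial chaperonin genes Hspe1 and Hspd1. Members of the HSP70, HSP90 and HSP110 families and their co-chaperones fold proteins, and heat shock factor raises them under protein stress. Of 27 tested, 16 were called higher in KI and 0 lower, against 3.6% and 4.85% of all genes. The median was 0.84. The 3 KI libraries lay above the 3 WT libraries, and these above the 3 KO libraries, in 12 of the 27, against 0.702% of all genes tested. The opposite order was found in 0 of the 27.

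Hspa8, the constitutive HSP70 (chromosome 9, 40800984 to 40810087, plus strand), has close copies that may share its reads, and read 23697, 20469 and 21407 in KO, 45820, 41717 and 41617 in WT and 73383, 66839 and 74040 in KI. The groups did not overlap, and KI exceeded KO by 1.71 ± 0.14 (adjusted p = 2.02e-04). Against WT, KI gave 0.73 (adjusted p = 0.103) and KO -0.98 (adjusted p = 0.00339). Hsph1, whose start site is printed above, read 2802, 2535 and 2463 in KO, 3597, 3909 and 3986 in WT and 7848, 6359 and 7003 in KI (1.44 ± 0.11, adjusted p = 1.47e-04). Hsph1 passed the test on both sides of WT, with 0.88 for KI (adjusted p = 0.0398) and -0.56 for KO (adjusted p = 0.0135).

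Stip1, the co-chaperone that links HSP70 and HSP90, read 4098, 3188 and 2959 in KO, 4498, 5125 and 4670 in WT and 8641, 7290 and 6534 in KI (1.14 ± 0.15, adjusted p = 0.00233). Chordc1, also printed above, read 2107, 1970 and 1926 in KO, 1985, 1996 and 2303 in WT and 4099, 3236 and 3846 in KI (0.89 ± 0.12, adjusted p = 0.00237). Its KO and WT libraries overlapped, and KI stood above both. The calls of Hspa8, Hsph1, Stip1 and Chordc1 held whichever library was left out, and also with the pancreatic covariate (adjusted p = 0.00725, 0.00457, 0.0348 and 0.0447). Called members included the HSP90 genes Hsp90aa1 and Hsp90ab1, at 1.34 and 1.13, and the chaperonin genes Hspe1 and Hspd1, at 1.01 and 0.70.

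The stress-inducible HSP70 genes Hspa1a and Hspa1b, named after their values were seen, were not called. Hspa1b read 343, 317 and 343 in KO, 146, 339 and 369 in KI and 95.9, 114 and 143 in WT (-0.34 ± 0.32, adjusted p = 0.556). Hspa1a read 195, 185 and 214 in KO and 116, 214 and 197 in KI (-0.22 ± 0.35, adjusted p = 0.749). For both genes KI overlapped KO, and the KI and KO libraries lay above WT. Hsf1, which encodes heat shock factor, differed by 0.31 ± 0.14, adjusted p = 0.197. The list's count was 10 without KO_2 and 12 to 17 with any other single library left out. With the covariate 4 members were called. With KI_2 as the only KI library the median was 0.67 and no member was called.

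**Figure D3:**
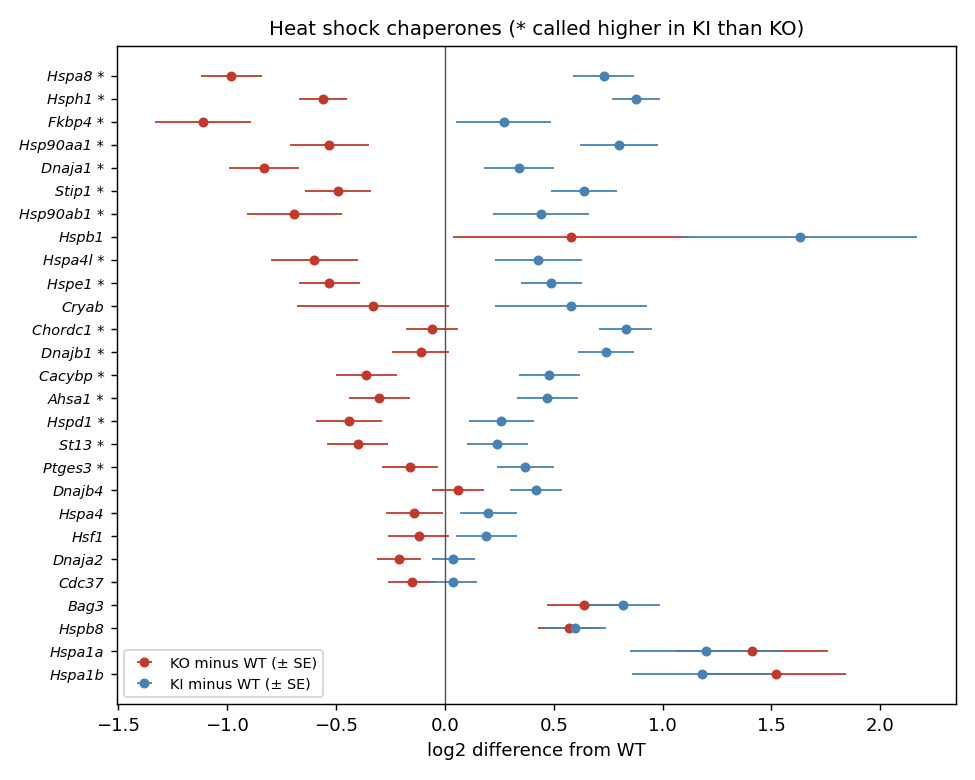
Log2 difference from WT (horizontal axis, points with standard errors) of 27 heat shock chaperone genes in KO and in KI, ordered by the difference between KI and KO, with genes called higher in KI starred. Most starred genes have KI to the right of WT and KO to the left, as Hspa8 with 0.73 and -0.98, while Hspa1a and Hspa1b lie to the right in both groups.

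The TRiC chaperonin, a cytosolic ring that folds actin and tubulin, showed a smaller difference. Of its 8 subunit genes, 4 were called higher in KI and 0 lower, against 3.6% and 4.85% of all genes. The median was 0.40. Cct7 read 5429, 4865 and 4299 in KO, 5988, 6218 and 5829 in WT and 7734, 6829 and 6526 in KI (0.53 ± 0.12, adjusted p = 0.0216), with no overlap. Cct6a, Cct5 and Tcp1 differed by 0.59 ± 0.13, 0.44 ± 0.10 and 0.41 ± 0.09. The count was 7 without KO_1, 2 without WT_1, 1 without KI_2 or KI_3, and 0 without KI_1, KO_2 or KO_3. It was 1 with the KI and KO libraries alone and 0 with the covariate. Folding and stress genes of the endoplasmic reticulum gave 2 calls among 22, both lower in KI, near the 8.45% called over all genes. Trib3, a stress-induced pseudokinase, differed by -2.30 ± 0.56 and Ppp1r15a, which restarts translation, by -0.50 ± 0.13, and neither was called without KO_2 (adjusted p = 0.0985 and 0.13). None of that list was called without KI_1, KI_3, KO_2, KO_3, WT_1 or WT_2. Of 31 proteasome subunits 0 were called by limma, edgeR or DESeq2 (median 0.07, 3 with an unadjusted p under 0.05).

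Ribosome biogenesis and MYC-linked genes gave 5 calls among 29, all higher in KI, against 3.6% of all genes called higher. The median was 0.42. The fifth, Wdr12, is a ribosome assembly factor gene. Odc1, ornithine decarboxylase and the first step of polyamine synthesis, read 2588, 3221 and 2484 in KO, 4233, 4271 and 4619 in WT and 5895, 5546 and 5942 in KI (1.08 ± 0.12, adjusted p = 8.44e-04). Srm, the spermidine synthase, had the same order, with 1137, 1457 and 1111 in KO, 1597, 1497 and 1737 in WT and 1985, 2471 and 2489 in KI (0.91 ± 0.14, adjusted p = 0.00499). The 3 groups did not overlap for either gene, and both calls held with each library left out. The nucleolar genes Ncl and Nop10 differed by 0.40 ± 0.10 and 0.43 ± 0.11, with KI values that overlapped WT, and were lost in 8 and 6 of the 9 fits that left out a library. The count of the list was 9 without KO_1, 3 without KO_3, WT_2 or WT_3, and 2 without KI_1, KI_3, KO_2 or WT_1. It was 2 with the KI and KO libraries alone and 1 with the covariate.

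Clock genes moved in both directions. In the liver clock, ARNTL and CLOCK activate the Per, Cry, Nr1d1 and Dbp genes, and PER, CRY and NR1D1 feed back as repressors. Of 24 tested, 9 were called higher in KI and 4 lower, against 3.6% and 4.85% of all genes. Arntl, also known as Bmal1, read 472, 438 and 756 in KO, 98.8, 69.4 and 72.9 in KI and 115, 173 and 100 in WT (-2.75 ± 0.28, adjusted p = 7.60e-04). Wee1, a cell cycle kinase gene under clock control, was opposite, at 133, 161 and 36.2 in KO and 1101, 1016 and 992 in KI (3.48 ± 0.43, adjusted p = 0.00191). Neither overlapped between KI and KO, and Arntl was lower in every KI library than in any WT library.

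The repressor gene Per2 read 776, 1051 and 454 in KO, 1353, 1482 and 1501 in WT and 2281, 1909 and 2204 in KI (1.56 ± 0.25, adjusted p = 0.00555), with no overlap. Tef, Per3, Usp2, Ciart, Dbp and Cry1 were also called higher, and Clock, Nr1d1 and Nfil3 lower. The calls of Arntl, Wee1 and Per2 held with each library left out. The count of higher calls was 5 without KI_1 or KI_3, and that of lower calls 2 without KI_1 or KO_2. With the KI and KO libraries alone they were 5 and 4, and with the covariate 2 and 1. The labels give no hour of harvest for single animals, so a shift in the phase of the clock and a change of level cannot be told apart.

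Bile acid and lipid genes were called in both directions. Cyp7a1, which catalyses the first and limiting step from cholesterol to bile acids, read 1459, 1116 and 156 in KO, 15366, 7538 and 9551 in KI and 7835, 14121 and 8712 in WT. KI overlapped WT and exceeded KO by 4.03 ± 0.69 (adjusted p = 0.00812). Cyp7a1 was the 1 gene called of 15 for bile acid synthesis, a share near the 8.45% over all genes. None of 16 bile acid and organic anion transporters was called in the full fit by limma or edgeR and 1 by DESeq2 (median 0.30, 5 with an unadjusted p under 0.05), and without KO_1 6 genes were called higher in each of these lists. Of 31 targets of PPAR-alpha, the fatty acid sensor that switches on oxidation, 5 were called higher, Fabp1 (1.18) with the 4 below, and 1 lower, the lipid droplet gene Plin2 (-0.88), with a median of 0.21. Acot1, an acyl-CoA thioesterase, read 320, 104 and 154 in KO and 999, 1121 and 906 in KI (2.53 ± 0.34, adjusted p = 0.00276). Ehhadh and Acaa1b, of peroxisomal oxidation, and the thioesterase Acot2 differed by 1.58 ± 0.24, 2.23 ± 0.38 and 1.48 ± 0.26. The calls of Cyp7a1 and of these 4 PPAR-alpha targets held with each library left out. With the covariate Cyp7a1 was not called, and 2 PPAR-alpha targets were called higher and 0 lower.

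Cholesterol synthesis gave 3 calls among 25, all lower in KI, among them Dhcr7 (-1.51 ± 0.31) and Hmgcs1 (-1.25 ± 0.34). Hmgcs1, the synthase before the rate-limiting reductase, read 15870, 21732 and 14584 in KO and 3887, 12044 and 7962 in KI, and KI_1 was the lowest library. The median of -0.36 became 0.22 with KI_2 as the only KI library. Without KI_1, KI_3 or KO_2, or with the covariate, none was called lower, and without KI_2 there were 5. Of 19 lipoprotein genes, 5 were called lower, down to Apoa4 at -3.57, and 1, Apoc4, higher (0.53). Scarb1, the receptor of high-density lipoprotein, read 22266, 19124 and 14954 in KO and 7988, 10202 and 8506 in KI (-1.07 ± 0.17, adjusted p = 0.00576), and its call held with each library left out. Over all genes 4.85% were called lower. The count of lower calls in the lipoprotein list was 3 without WT_1 or with the KI and KO libraries alone, 2 without KI_1, KI_3 or KO_2, and 1 with the covariate. Fatty acid and triglyceride synthesis gave 0 calls among 20 by limma or edgeR and 1 by DESeq2 (median -0.05, 6 with an unadjusted p under 0.05), although 2 were called lower without KI_2, 2 higher without KO_1 and 1 lower without KO_3.

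Glucose and glycogen genes gave 1 call higher and 2 lower among 13, against 3.6% and 4.85% of all genes. Gys2, the liver glycogen synthase, read 5798, 4906 and 2730 in KO and 12158, 13063 and 12435 in KI (1.56 ± 0.23, adjusted p = 0.00394), and its call held with each library left out. Ppargc1a, a co-activator of glucose production, differed by -1.37 ± 0.32 and lost its call without KI_1, KI_3, KO_2 or WT_1. Igfbp1, which binds insulin-like growth factors, read 2615, 11337 and 10347 in KO and 200, 1362 and 476 in KI (-3.73 ± 0.71, adjusted p = 0.0127). KI_2 was the highest KI library, and the call was lost without KI_1 or KO_2 (adjusted p up to 0.0625). Stat5b, the transducer of growth hormone, differed by -0.81 ± 0.11 with WT between KI and KO, and held with each library left out.

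Nuclear-encoded subunits of oxidative phosphorylation shifted little but mostly one way. Of 50 tested, 9 were called higher in KI and 0 lower, 49 had a positive difference, and the median was 0.33. Among all genes tested, 3.6% were called higher and 51.0% had a positive difference. Ndufb9, a subunit of complex I, read 2438, 1976 and 2140 in KO, 3139, 3050 and 3106 in KI and 3281, 2923 and 2961 in WT (0.51 ± 0.11, adjusted p = 0.0178). Cox7b, of complex IV, and Uqcrb, of complex III, differed by 0.61 ± 0.12 and 0.57 ± 0.12. The mean difference from WT was -0.12 in KO_1, -0.42 and -0.55 in KO_2 and KO_3, and -0.07 to 0.01 in KI. The count of 9 was 32 without KO_1, 5 without KI_2 or WT_2, 4 without WT_1, 2 without KO_3, 1 without KI_1, and 0 without KI_3 or KO_2. It was 2 with the KI and KO libraries alone and 0 with the covariate. None of the 13 genes encoded in mitochondrial DNA was called by limma, edgeR or DESeq2 (median -0.03, 0 with an unadjusted p under 0.05).

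**Figure D4:**
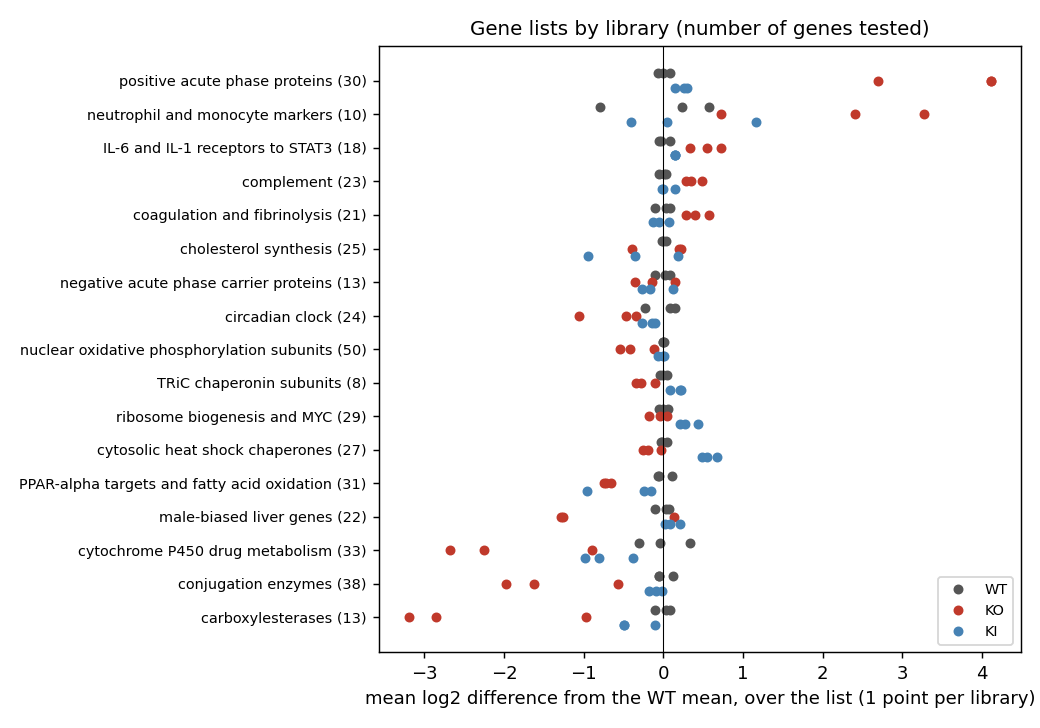
Mean log2 difference from the WT mean over 17 gene lists (horizontal axis), 1 point per library, with the number of genes tested beside each name. Acute phase proteins lie far to the right in the 3 KO libraries (2.70 to 4.12), drug-metabolising lists to the left in KO_2 and KO_3 with KO_1 nearer to 0, and heat shock chaperones to the right in the 3 KI libraries (0.48 to 0.68).

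Wild type lay between the mutants, with no overlap among the 3 groups, in part of the 1214 called genes with a mean of at least 50. Of these, 86 had KI highest and 93 had KO highest. Over all genes tested, 0.702% had the order with KI highest, and no share is given for the opposite order. A call between KI and KO favours genes with these groups at the ends, so the counts describe the selected genes only. Genes with KI between WT and KO, such as Inmt and Ces1d, are not in these counts. Apart from Gm and Rik genes, no called gene had KO between WT and KI under the same criteria. The 10 named here have the largest smaller distance from WT, so their order is fixed by the choice and is given as a description. Lonrf1, a ubiquitin ligase gene, read 161, 154 and 153 in KO, 400, 495 and 572 in WT and 1064, 659 and 865 in KI. Selenbp2, a selenium-binding protein gene that is higher in male liver, read 3332, 1438 and 925 in KO, 4938, 4989 and 6149 in WT and 19540, 9382 and 16745 in KI. These 2 genes had KI highest, with differences of 2.43 ± 0.20 and 3.14 ± 0.41.

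The other 8 had KO highest. Acnat2, a peroxisomal acyltransferase gene, read 3136, 10435 and 7201 in KO, 2070, 2780 and 1525 in WT and 444, 497 and 265 in KI (-3.99 ± 0.41, adjusted p = 7.52e-04). Apoa4, an apolipoprotein of lipid transport, read 30242, 92829 and 41535 in KO, 12348, 7125 and 11424 in WT and 4063, 4850 and 3560 in KI (-3.57 ± 0.36, adjusted p = 7.52e-04). Fst encodes follistatin, which traps activin, and read 328, 558 and 580 in KO, 141, 112 and 122 in WT and 30.1, 91.3 and 60.5 in KI (-3.08 ± 0.38, adjusted p = 0.00176). Irs2 encodes an adaptor of the insulin receptor and differed by -2.17 ± 0.36, from 570, 1402 and 956 in KO through 536, 433 and 338 in WT to 128, 264 and 245 in KI. Enpp3, an ectonucleotidase gene, had the smallest SE of the 10, with 6367, 5419 and 5181 in KO, 2581, 3133 and 2715 in WT and 1302, 1874 and 1316 in KI (-1.93 ± 0.16, adjusted p = 1.96e-04). Col5a3, Unc93a2 and Sult2a7 differed by -2.18 ± 0.41, -2.78 ± 0.34 and -1.88 ± 0.33.

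Each of these 10 calls held with each library left out. With the pancreatic covariate those of Irs2, Col5a3 and Sult2a7 were lost (limma adjusted p = 0.107, 0.167 and 0.127). On the KI side none of the 10 passed the test against WT, where Acnat2 and Enpp3 had the lowest adjusted p (0.085 for Acnat2 and 0.085 for Enpp3). On the KO side Acnat2, Selenbp2, Apoa4, Fst, Enpp3, Unc93a2 and Lonrf1 passed it, with adjusted p from 0.0015 for Lonrf1 to 0.0401 for Acnat2. Both sides share the WT libraries.

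**Figure D5:**
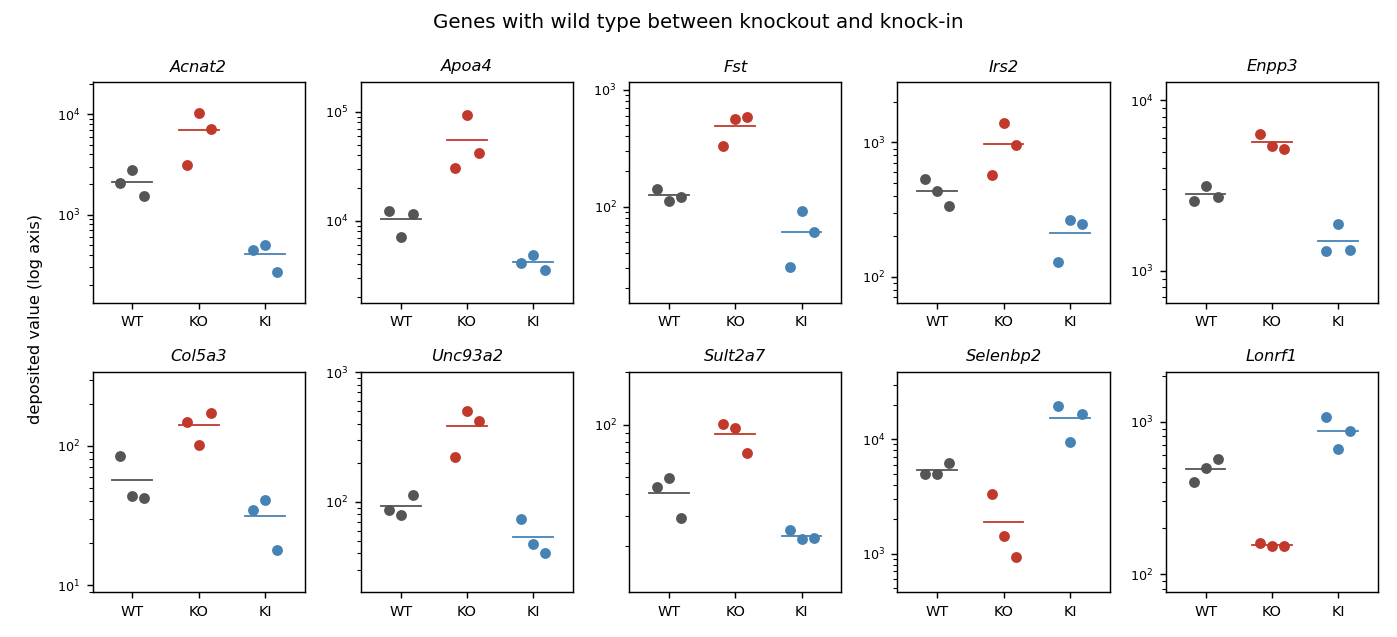
Deposited values by library (log axis) of 10 called genes whose WT libraries lie between KO and KI, for WT, KO and KI with 1 point per library. Selenbp2 and Lonrf1 are highest in KI and the other 8 highest in KO, as for Enpp3 with 5181 to 6367 in KO, 2581 to 3133 in WT and 1302 to 1874 in KI.

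Among other called genes with large differences, several rested on single libraries. Moxd1, a monooxygenase-like gene, read 57.8, 0 and 17.2 in KO and 1720, 65.8 and 2359 in KI, and Kcnk1, a potassium channel gene, 13.2, 4.05 and 2.71 in KO and 283, 53 and 410 in KI. Both were high in KI_1 and KI_3, the KI libraries with pancreatic transcripts, and their calls (5.98 ± 1.63 and 4.85 ± 1.28) were lost without either, among other libraries. Atp6v0a4, a proton pump subunit gene, read 78.1, 547 and 426 in KO and 31.1, 0 and 0 in KI (-6.38 ± 1.36, adjusted p = 0.0206) and lost its call without KI_2, KI_3, KO_2 or KO_3. Slc13a5, the citrate importer, read 275, 2878 and 4162 in KO and 56.9, 95 and 17.9 in KI (-4.98 ± 0.90, adjusted p = 0.0103), and Trat1, an adaptor of the T cell receptor, 83.2, 280 and 424 in KO and 12.9, 1.83 and 10.1 in KI (-4.83 ± 0.87, adjusted p = 0.00993). Both lost their calls without KO_2 (adjusted p = 0.0543 and 0.0569). Clec2h, a lectin gene, differed by 4.38 ± 1.11 and kept its call only without KO_1. Atp2b2, a calcium pump gene, read 247, 331 and 341 in KO and 29, 16.4 and 1.12 in KI (-4.88 ± 0.83, adjusted p = 0.00801) and held with each library left out.

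Growth arrest, antigen presentation and SND1 partner lists gave 2 or 3 calls each. Over all genes 8.45% were called, and the shares in the cell cycle and SND1 partner lists were near it. Cdkn1a, the cell cycle inhibitor p21, read 683, 948 and 1855 in KO, 106, 58.5 and 52.7 in KI and 64.3, 106 and 31 in WT (-3.93 ± 0.48, adjusted p = 0.00179). It was 1 of 2 called among 15 p53 targets, both lower in KI, with Perp at -0.52 ± 0.09. Cell cycle genes gave 2 calls of 26, Ccnd1 (2.04 ± 0.50) and E2f1 (1.07 ± 0.27), both higher in KI, and none without any 1 KI library, KO_2 or any 1 WT library. The class I antigen genes H2-K1 and H2-D1 and the interferon transducer Stat2 were the 3 called of 23 interferon genes, lower in KI by -0.70 ± 0.13, -0.71 ± 0.14 and -0.72 ± 0.16, and none without KI_1 or KI_3. Of 28 SND1 partners and methylarginine genes, Wdr77, which assists PRMT5, was called higher (0.52 ± 0.13) and Mtdh, a binding partner of SND1, lower (-0.47 ± 0.11). Neither was called without KI_1, KI_3, KO_2, KO_3, WT_1 or WT_2, and Wdr77 kept its call only without KO_1. The list's median was 0.08.

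Lists that mark sex, zone and cell type gave between 0 and 4 calls each. Over all genes 8.45% were called, 3.6% higher and 4.85% lower, and the share of pericentral genes called was not above that. Of 22 male-biased genes, 4 were called higher in KI and 0 lower, with a median of 0.80. The count was 16 without KO_1, 2 without KI_2, KI_3 or WT_1, and 1 without KI_1 or KO_2. Ugt2b1, a glucuronosyltransferase gene, read 60557, 16055 and 15885 in KO and 128992, 125461 and 122676 in KI (2.34 ± 0.44, adjusted p = 0.0118) and lost its call without KI_1 or KO_2. Of 18 female-biased genes, 2 were higher and 1 lower. The lower one was Cyp17a1, a P450 of steroid hormone synthesis, which read 372, 741 and 379 in KO and 169, 79.5 and 111 in KI (-2.04 ± 0.32, adjusted p = 0.0056), and its call held with each library left out. Of this list, without KO_2 no gene was higher and without KI_1 or KI_3 1 was. Pericentral genes gave 1 call of 17, Rgn (1.43 ± 0.31), and 7 without KO_1, while periportal genes gave 2 of 13, Sdsl (-1.64 ± 0.26) and Ctsc (-0.84 ± 0.16), both lower in KI. Afmid, of tryptophan breakdown, read 1081, 498 and 440 in KO and 2171, 2289 and 2237 in KI (1.85 ± 0.28, adjusted p = 0.00495) and held with each library left out. By limma and edgeR none of 8 hepatocyte markers was called (median 0.12), nor any of 9 endothelial, 11 stellate and 9 T and NK cell markers. At an unadjusted p under 0.05 these lists had 0, 1, 2 and 1 genes, and DESeq2 called 1, a stellate marker. The bile duct gene Sox9 was called lower in KI, at -1.28 ± 0.34, and was not by edgeR or without KI_1, KI_3, KO_1, KO_2, KO_3, WT_1 or WT_3.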

How the data were processed

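mRNA libraries from 9 livers (3 WT, 3 KO, 3 KI) were made with a stranded kit, per the labels' protocols. Per the submitters' processing notes, TopHat2, Bowtie2, featureCounts and GRCm38 were used; versions, annotation, strand setting and scaling tool are not given in the sources used here. The deposited values are a normalised signal, read counts divided by a size factor (0.8921 to 1.1051). Whole reads were recovered for at least 99.995% of values per library (tolerance 0.0051, 5 values not whole). Of 19944 genes, 554 had no symbol.

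log2(value + 1) was tested with limma 3.58.1 (R 4.3.3, eBayes with trend, two-sided) over all 9 libraries (6 residual degrees of freedom) for genes with a mean of at least 10, with Benjamini-Hochberg adjustment over 15238 genes. All differences are on this log2 scale, which understates changes of low genes.

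Named genes are Snd1; the 12 called genes per direction with the largest difference, a mean of at least 50 and no overlap; up to 4 called genes with the lowest adjusted p per list; and the 10 genes with WT between the groups by the widest margin. Some genes that this rule chose are not reported here. Genes named only by a Gm number or Rik, 136 of those called, were not named. Genes that complete a small count, such as Mbl2, Wdr12, Fabp1, Plin2, Apoc4, Nnmt and Ugt2b37, further called members of the heat shock and clock lists, and Fga were named after their values were seen. Members and the 53 lists were chosen with earlier results of these data known, and 52 lists had a tested member. Alternatives were edgeR 4.0.16 and DESeq2 1.42.0 on recovered reads, other scalings, filters and pseudocounts, a replicate block, leaving out each library, a pancreatic covariate and leaving out 3 libraries. On simulated data for this comparison the fit recovered 16 of 67 genes changed 1.5-fold, 35 of 67 changed 2-fold and 48 of 66 changed 4-fold. It made 1 false call among the genes left unchanged. The simulated noise was independent between genes, without shifts shared by the genes of a library, so that false call count may not carry over to these data. RefSeq promoter windows were found for 10822 tested genes.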

Additional observations from a re-analysis of the deposited data

How the results depend on the processing

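The main counts were 548 higher and 739 lower. DESeq2 on recovered reads called 1010 and 1277, the fit on the KI and KO libraries alone 220 and 388, the fit with the pancreatic covariate 48 and 89, and the fit without KI_1, KI_3 and WT_3 0 and 4, where Snd1 differed by 4.61 (adjusted p = 0.0504). Leaving out each library gave 160 to 1235 higher and 240 to 1066 lower. Other settings (edgeR, TMM and upper quartile scaling, other filters and pseudocounts, robust eBayes) stayed within 1.5 times. Upper quartile scaling moved the share of higher calls from 42.6% to 49.2%. The 3 KI and 3 KO libraries share replicate numbers, but the deviations of same-numbered libraries correlated by -0.024, 0.045 and 0.203, so the numbers were not taken to pair them; a replicate block gave 634 higher and 866 lower. Of 129 named genes besides Snd1, 53 kept the call in all 9 fits with a library left out, 32 with the covariate, 2 without the 3 libraries, 81 with KI and KO alone, 114 in edgeR, 122 in DESeq2 (3 had no adjusted p), 126 with the block, and 117 in every scaling, filter, pseudocount and robust fit. None reversed in any of these. The median of iron regulation genes (0.31) was -0.01 with the covariate, -0.01 to 0.33 with single libraries left out (lowest without KI replicate 1) and -0.05 without the 3 libraries, and that of exocrine pancreas markers (9.58) was -1.09 with the covariate and 0.00 without the 3 libraries; these fits use fewer libraries or remove that signal by construction. With 3 libraries a group, the self-test recovered 35 of 67 genes changed 2-fold, so an uncalled gene may still differ.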

Other observations

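Some genes outside the groups above, chosen after their values were seen, had a small spread within KI and within KO. Fabp5, an epidermal fatty acid carrier, read 8657, 8537 and 8863 in KO, 1883, 2340 and 2251 in KI and 1807, 1620 and 2341 in WT (-2.01 ± 0.14, limma adjusted p = 9.57e-05). Slc3a1, a subunit of the cystine transporter, read 14904, 18798 and 15143 in KO and 2329, 1916 and 1648 in KI (-3.06 ± 0.24, limma adjusted p = 1.96e-04). Unlike most acute phase genes, KO_1 stood with the other KO libraries for both. Fabp5 and Slc3a1 were also 2 of the 4 genes called with KI_2 as the only KI library. The hepatokine gene Fgl1, a member of the acute phase list, read 104028, 237202 and 259286 in KO and 7069, 8551 and 7156 in KI (-4.62 ± 0.31, limma adjusted p = 7.33e-05).

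Genes beside Snd1 were also counted. Within 10 Mb of Snd1, 79 genes were tested, and 3 were called higher and 6 lower in KI (11.4%), against 8.45% elsewhere. Calu, which encodes a calcium-binding protein of the secretory pathway and lies close to Snd1, differed by -1.18 ± 0.17 (limma adjusted p = 0.00322).

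Single calls in further lists were Ephx1, an epoxide hydrolase (1.44 ± 0.26), Esrra, an orphan nuclear receptor (0.73 ± 0.17), Otc, of the urea cycle (1.27 ± 0.33), and Junb, an immediate-early factor (-2.37 ± 0.46). Their lists had 14, 12, 9 and 12 genes tested, so these shares were near the 8.45% called over all genes. None of these genes was called without KO_2 or with the pancreatic covariate. Otc lost its call in 8 of the 9 fits that left out a library, and Esrra in 5. Among 15 chemokines limma called 0, edgeR 1 and DESeq2 3, with 5 at an unadjusted p under 0.05.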
